A study of Mus musculus with 6 samples.

Results

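The 35 genes described here encode the chaperones of the endoplasmic reticulum (ER), their folding partners and the sensors of the unfolded protein response. They form a list of names that uses no measured value as a rule but was drawn up with earlier results of these data known, and all 35 were found among the 43432 genes of the deposited table, where names are written in capitals and were matched ignoring case. RNA was sequenced from atria of 3 obese mice, fed a high-fat diet (HFD), and 3 lean mice, fed a control diet. All were wild-type C57/Bl6J mice, the diets began at 6 weeks of age and lasted 10 weeks, and right and left atrial tissue was taken. The model is one of diet, with no transgene in either group, and every value comes from whole tissue, so that fewer cells of a type and less RNA per cell cannot be told apart. The sample labels contradict one another, since the treatment field gives the opposite diet to the sample title for all 6 samples, and the titles, which match the column names of the table, were followed. Each sample is called a mouse here. Whether atria of several mice were pooled is not stated, and p-values measure only the spread between these samples.

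Proteins that enter the secretory pathway are threaded into the ER through the Sec61 channel and fold there with the help of chaperones, disulfide isomerases and a lectin cycle. Chains that fail to fold are drawn back to the cytosol and degraded, a route called ER-associated degradation. When unfolded protein accumulates, 3 membrane sensors start the unfolded protein response. IRE1α (Ern1) splices Xbp1 mRNA, ATF6 is cut to release a transcription factor, and PERK (Eif2ak3) slows translation and favours synthesis of ATF4. ATF6 and spliced XBP1 raise transcription of chaperone and degradation genes. In the heart these proteins also serve calcium storage and the secretion of matrix and of atrial natriuretic peptide. The values here are gene-level, so neither the splicing of Xbp1 nor the cleavage of ATF6 was measured.

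The values are normalized counts, the authors' read count of a gene divided by 1 size factor per sample. The reads on genes recovered from them ranged from 15874251 to 28971508 per mouse, with lean mouse 2 the deepest, and 3 reads, taken as the smallest signal, correspond to between 2.05 and 3.41 normalized counts. Mitochondrial genes held 30.7% of the reads of lean mouse 2 and between 19.5% and 24.4% of those of the other mice. Of 24679 genes with any read, 15275 had a mean of at least 10 normalized counts and were tested with limma on log2(normalized count + 1), and all 35 genes were among them. Atrial myocyte markers were abundant, with 6 genes summing to between 559170 and 979987 normalized counts per mouse, against between 4262 and 13770 for 4 ventricular markers. The highest of these ventricular sums was that of lean mouse 2, and obese mouse 3 stood apart from the other obese mice in the atrial markers as well as in the genes described here, so that results are given with and without it.

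Many promoters of ER chaperone genes carry the ER stress response element (ERSE), the sequence through which ATF6 and XBP1 are known to act, and the element was first described in genes of this kind, so that finding it among them is background and not a result. RefSeq windows of GRCm38.p6, from 250 bases before to 50 bases after each start site, were matched for 30 of the 35 genes. Both strands were searched for ERSE (CCAAT and CCACG with any 9 bases between them), for the related ERSE-II (ATTGG and CCACG with any 1 base between them) and for the XBP1 element UPRE (TGACGTGG). ERSE was present in 10 of the 30 genes (33.3%) and in 39 of all 32851 windows (0.119%), and ERSE-II in 2 of the 30 (6.67%) and in 12 windows (0.0365%), none of which also held ERSE. No UPRE was found in the 30 genes, while 222 windows (0.676%) held one. The runs below are shown because the values of these genes are compared by element further on, with the fixed bases of each element in capitals and 5 flanking bases on each side.
Hspa5, ERSE: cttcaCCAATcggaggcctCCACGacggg
Hsp90b1, ERSE, upstream copy: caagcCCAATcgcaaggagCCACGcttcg
Hsp90b1, ERSE, downstream copy: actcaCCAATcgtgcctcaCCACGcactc
Calr, ERSE: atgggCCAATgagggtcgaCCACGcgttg
Canx, ERSE: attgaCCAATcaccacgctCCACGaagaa
Creld2, ERSE: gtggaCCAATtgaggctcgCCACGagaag
Pdia6, ERSE: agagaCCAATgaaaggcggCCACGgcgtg
Herpud1, ERSE-II: cgctgATTGGgCCACGttgga
Dnajb11, ERSE-II: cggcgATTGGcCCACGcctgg
In GRCm38 these runs lie at chr2:34772020-34772048 (plus strand) for Hspa5, chr10:86705633-86705661 (minus strand) and chr10:86705528-86705556 (plus strand) for Hsp90b1, chr8:84847070-84847098 (plus strand) for Calr and chr11:50325795-50325823 (minus strand) for Canx. The others lie at chr15:88819515-88819543 (minus strand) for Creld2, chr12:17266486-17266514 (plus strand) for Pdia6, chr8:94386372-94386392 (plus strand) for Herpud1 and chr16:22857847-22857867 (plus strand) for Dnajb11. The element of Hspa5 begins 65 bases before the start site, that of Herpud1 52 bases before it, and that of Dnajb11 lies just past it. ERSE was also found in the windows of Ero1lb, Dnajc3, Syvn1 and Derl3. Such a match is a description of the letters and no evidence of binding in these atria.

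Of the 35 genes, none passed the threshold of an adjusted p under 0.05 between obese and lean atria, whereas 114 of the 15275 genes tested (0.746%) did with limma and Benjamini-Hochberg adjustment. DESeq2 and edgeR on the recovered reads also called 0 of the 35. The shares of all genes were 3.34% of the 14079 with an adjusted p in DESeq2 and 0.57% of the 15275 in edgeR. DESeq2 gave Derl3 no adjusted p. At an unadjusted p under 0.05, 5 of the 35 (14.3%) passed with limma, against 12.2% of all genes, and 7 passed with DESeq2 and 6 with edgeR, against 11.3% and 12.2% of all genes in those tests. All 5 were higher in obese atria, Atf6, Edem1, Herpud1, Dnajc3 and Hsp90b1, while none was lower; of all genes 6.66% were under 0.05 and higher and 5.55% under 0.05 and lower. The share of these genes past the unadjusted threshold is thus close to that of the whole table. In 29 of the 35 the log2 fold change of obese over lean was above 0, against 50.8% of all genes, and the median was 0.19 against 0.0049 for all genes. For 3 of the 35, Atf6, Edem1 and Sec61a1, the groups did not overlap, against 18% of all genes and 8.86% in the direction of these 3. With 3 mice in each group an exact permutation test cannot give a p below 0.1, the value reached by these 3 genes.

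**Figure D1:**
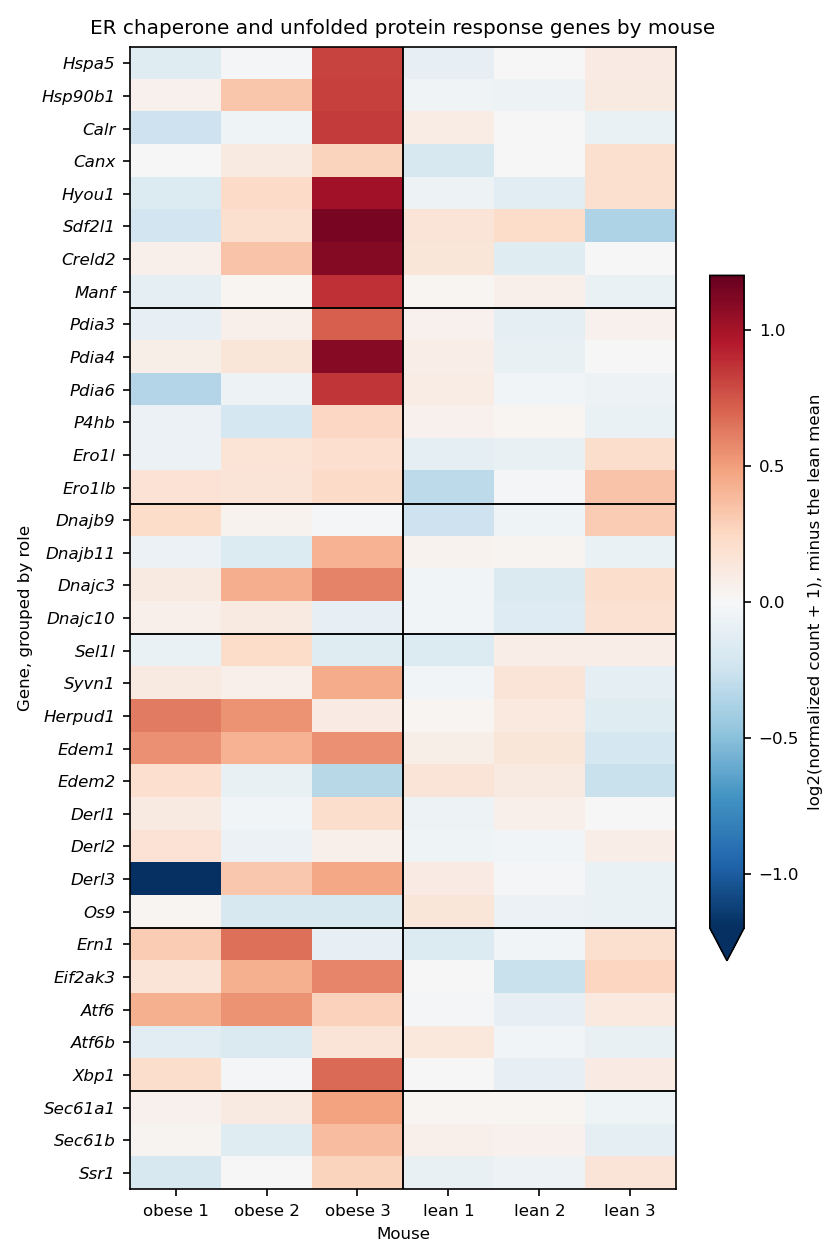
Colour shows log2(normalized count + 1) of each of the 35 genes (rows, grouped by role) in each mouse (columns) minus the mean of the 3 lean mice. Most chaperones and isomerases are deepest red in obese mouse 3. Atf6 and Edem1 are above the lean mean in all 3 obese mice, as are several other genes, among them Hsp90b1, Creld2 and Pdia4. The lowest value of Derl3, in obese mouse 1, lies past the end of the scale.

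The pattern differed between obese mice. Taken over the 35 genes, the median difference from the lean mean on the log2 scale was 0.05 in obese mouse 1, 0.11 in obese mouse 2 and 0.42 in obese mouse 3. Obese mouse 3 held the highest of the 6 values for 23 of the 35 genes (65.7%), against 20.3% of all genes tested. Its value was at least 1.5 times that of the next highest mouse for 9 of the 35, against 2.36% of all genes. Without obese mouse 3, the median log2 fold change of the 35 was 0.05, 22 of the 35 were above 0 (against 50.6% of all genes), and 11 changed sign. Then 1 of the 35 passed an adjusted p under 0.05 in limma, Herpud1, against 2.08% of all genes, and 4 passed an unadjusted p under 0.05, all higher in obese atria, against 14.5% of all genes in either direction and 7.67% in that direction.

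The lumenal and membrane chaperones were the group in which obese mouse 3 stood farthest from the rest. Its value was the highest of the 6 mice for all 8 of them, and for 6 of the 8 it was at least 1.5 times the next. The median ratio of obese mouse 3 to the mean of the other 5 mice was 1.86 for these 8 genes and 0.988 for all genes tested. Their median log2 fold change of 0.31 with all mice became 0.0067 without obese mouse 3, when 4 of the 8 were above 0.

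Hspa5, on chromosome 2 from 34771970 to 34777547, encodes BiP, the Hsp70 of the ER, which holds unfolded chains and keeps the stress sensors inactive. Normalized counts of Hspa5 were 7098, 7725 and 13848 in obese mice 1 to 3 and 7371, 7865 and 8409 in lean mice 1 to 3. Obese mouse 3 was far above the other 5 mice, while obese mice 1 and 2 lay within or below the lean range. Obese mice averaged 9557 ± 3729 and lean mice 7881 ± 519 (SD, n = 3 each). This is a log2 fold change of 0.21 with a standard error of 0.22 (adjusted p = 0.752 in limma). The value of obese mouse 3 was 1.65 times that of the next mouse, and without it the log2 fold change was -0.09.

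Hsp90b1, on chromosome 10 from 86690209 to 86705509, encodes GRP94, the Hsp90 of the ER. Obese mice 1, 2 and 3 had 6734, 8176 and 11501 normalized counts of Hsp90b1, and lean mice 1, 2 and 3 had 6304, 6236 and 7021. Obese mice 2 and 3 were above all lean mice, and obese mouse 1 was within the lean range. The obese mean was 8804 ± 2445 and the lean mean 6520.1 ± 435 (SD, n = 3 each). In limma the log2 fold change was 0.40 (standard error 0.18, adjusted p = 0.394). Leaving out obese mouse 3 gave 0.19.

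Calr encodes calreticulin, which binds glycoproteins through their sugars and stores calcium. In obese mice 1 to 3 the normalized count of Calr was 4450.2, 5100.1 and 9439.9, and in lean mice 1 to 3 it was 5613, 5269.8 and 4989.7. Here too obese mouse 3 was alone above the rest, at 1.68 times the next mouse, and obese mouse 1 was the lowest of the 6. The means were 6330.1 ± 2713 for obese and 5291 ± 312 for lean mice (SD, n = 3 each). The log2 difference, obese over lean, was 0.18 with a standard error of 0.23 and an adjusted p = 0.815 in limma. It was -0.15 without obese mouse 3.

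Creld2 encodes a calcium-binding protein of the ER that is known to rise under ER stress. Creld2 had 280.3, 341 and 575 normalized counts in obese mice 1, 2 and 3 and 296, 242 and 269 in lean mice 1, 2 and 3. The value of obese mouse 3 was 1.69 times the next, obese mouse 2 was above the lean mice and obese mouse 1 within their range. Obese mice averaged 399 ± 156 and lean mice 269 ± 26.7 (SD, n = 3 each). This is a log2 fold change of 0.50 with a standard error of 0.24 (adjusted p = 0.431 in limma). It was 0.20 without obese mouse 3.

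Hyou1 encodes GRP170, which exchanges nucleotide on BiP. Normalized counts of Hyou1 were 912, 1199 and 2055 in obese mice 1 to 3 and 977, 938 and 1166 in lean mice 1 to 3. Obese mouse 1 was the lowest and obese mouse 3 the highest of the 6. The obese mean was 1389 ± 594 and the lean mean 1027 ± 122 (SD, n = 3 each). In limma the log2 fold change was 0.36 (standard error 0.24, adjusted p = 0.616). Leaving out obese mouse 3 gave 0.03.

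Sdf2l1, a partner of BiP, Manf, a secreted protein that binds BiP, and Canx, the membrane lectin calnexin, make up the rest of the chaperones. In obese mouse 3, Sdf2l1 had 264 normalized counts, against a range of 91.8 to 139 in the other 5 mice, and Manf had 1061 against 530.4 to 601. Canx did not follow to the same extent, with 6433 in obese mouse 3 and 6111 in lean mouse 3, the next highest. Their log2 fold changes were 0.37, 0.26 and 0.12. Manf is overlapped by Dcaf1 on the opposite strand and Rbm15b on the same strand, whose mean values were 74.4% and 66.1% of its own, so its reads could not be assigned with certainty, the use of strand in counting being not stated.

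**Figure D2:**
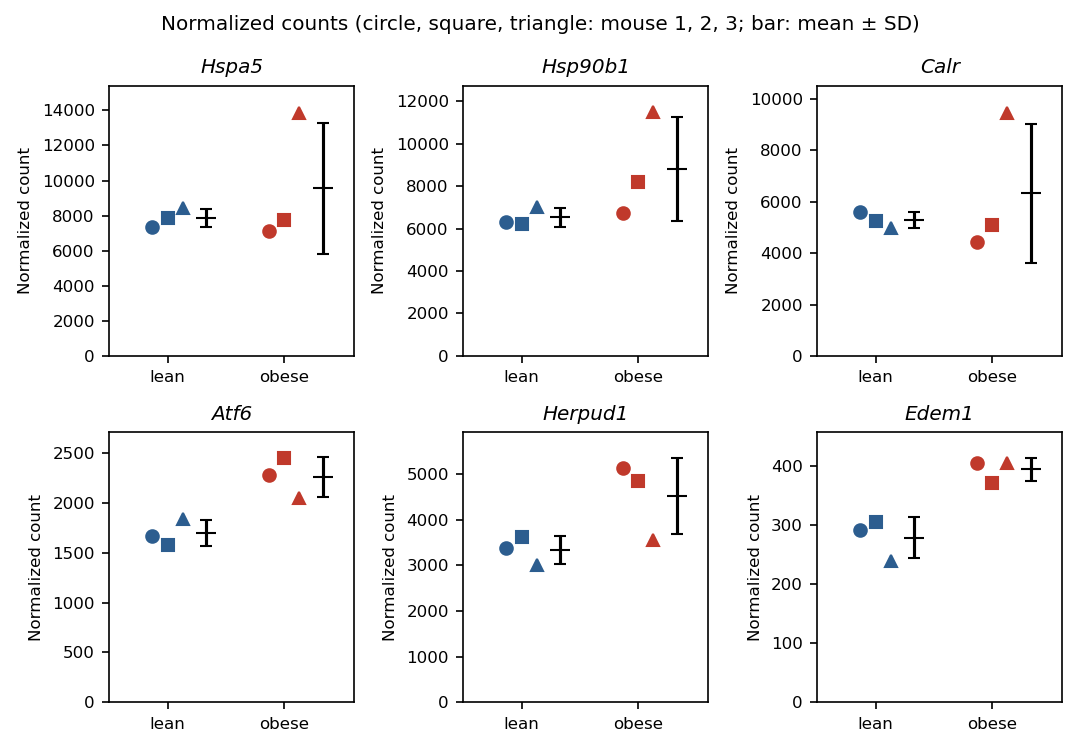
Normalized counts of 6 genes in each mouse, with lean mice in blue, obese mice in red, the mouse numbers as symbols and the mean ± SD (n = 3) as a bar. The triangle of obese mouse 3 is far above all others for Hspa5 and Calr and the highest for Hsp90b1, whereas it is the lowest of the obese mice for Atf6 and Herpud1, and all obese mice exceed all lean mice for Atf6 and Edem1.

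The 6 protein disulfide isomerases and oxidases form and rearrange disulfide bonds. None passed an unadjusted p under 0.05 in limma, against 12.2% of all genes. The value of obese mouse 3 was the highest for 4 of the 6 and at least 1.5 times the next for 3, and the median ratio to the mean of the other 5 mice was 1.44. Pdia4 encodes ERp72, an isomerase with several thioredoxin-like domains. Obese mice 1, 2 and 3 had 911, 958 and 1848 normalized counts of Pdia4, and lean mice 1, 2 and 3 had 915, 815 and 870.1. Obese mouse 3 stood apart, at 1.93 times the next mouse, obese mouse 2 was just above the lean mice and obese mouse 1 within their range. The means were 1239 ± 528 for obese and 867 ± 49.9 for lean mice (SD, n = 3 each). The log2 difference, obese over lean, was 0.44 with a standard error of 0.23 and an adjusted p = 0.495 in limma. It was 0.11 without obese mouse 3.

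Pdia3, the isomerase that works with calnexin and calreticulin, had 5570.1 normalized counts in obese mouse 3 and between 3164 and 3540 in the other 5 mice (log2 fold change 0.22). Pdia6 had 2949 in obese mouse 3 and between 1275 and 1730 in the others (log2 fold change 0.15, and -0.21 without obese mouse 3). P4hb, the founding disulfide isomerase, had a log2 fold change of -0.01 with a 95% confidence interval from -0.30 to 0.28. The oxidases that recharge these isomerases, Ero1l and Ero1lb, had log2 fold changes of 0.10 and 0.19, and their highest value was in lean mouse 3.

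The 4 DnaJ co-chaperones, which stimulate the ATPase of BiP, had log2 fold changes between 0.02 and 0.38. Dnajc3 encodes P58IPK, which is also known as an inhibitor of PERK. In obese mice 1 to 3 the normalized count of Dnajc3 was 1454, 1828 and 2050.2, and in lean mice 1 to 3 it was 1322, 1197 and 1563. Obese mice 2 and 3 exceeded all lean mice, and obese mouse 1 lay below lean mouse 3. Obese mice averaged 1777 ± 301 and lean mice 1361 ± 186 (SD, n = 3 each). This is a log2 fold change of 0.38 with a standard error of 0.15 (adjusted p = 0.348 in limma). Leaving out obese mouse 3 gave 0.27.

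Dnajb9 encodes ERdj4, a known target of the IRE1α and XBP1 arm. Dnajb9 had 857, 759.8 and 730.3 normalized counts in obese mice 1, 2 and 3 and 619, 708 and 908 in lean mice 1, 2 and 3. The groups overlapped over most of their range, and obese mouse 3 was the lowest of the obese mice. The obese mean was 782 ± 66.2 and the lean mean 745 ± 148 (SD, n = 3 each). In limma the log2 fold change was 0.08 (standard error 0.15, adjusted p = 0.877). Dnajb11, which binds unfolded chains together with BiP, and Dnajc10, a reductase that opens disulfide bonds before degradation, had log2 fold changes of 0.06 and 0.02.

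In the group of ER-associated degradation, 2 of 9 genes (22.2%), Edem1 and Herpud1, passed an unadjusted p under 0.05, against 12.2% of all genes. Both were higher in obese atria. Edem1, on chromosome 6 from 108828641 to 108859356, encodes a mannosidase-like protein that directs misfolded glycoproteins to degradation. Normalized counts of Edem1 were 406, 371 and 405 in obese mice 1 to 3 and 291, 306 and 239 in lean mice 1 to 3. All 3 obese mice were above all 3 lean mice, and the 3 obese values were close together. The means were 394 ± 19.9 for obese and 279 ± 34.9 for lean mice (SD, n = 3 each). The log2 difference, obese over lean, was 0.50 with a standard error of 0.15 and an adjusted p = 0.162 in limma. On leaving out each mouse singly it stayed between 0.40 and 0.58.

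Herpud1, on chromosome 8 from 94386438 to 94395377, encodes a membrane protein that organizes the degradation complex. Obese mice 1, 2 and 3 had 5140.3, 4841 and 3564 normalized counts of Herpud1, and lean mice 1, 2 and 3 had 3383, 3624 and 3017. Obese mice 1 and 2 were far above the lean mice, whereas obese mouse 3 lay just below lean mouse 2. Obese mice averaged 4515 ± 837 and lean mice 3341 ± 306 (SD, n = 3 each). This is a log2 fold change of 0.42 with a standard error of 0.15 (adjusted p = 0.276 in limma). Without obese mouse 3 the log2 fold change was 0.58 and the adjusted p in limma 0.0323, under the threshold. This mouse was singled out by values of these same genes and holds the lowest obese value of Herpud1. With each other mouse left out, the adjusted p in limma was between 0.465 and 0.548.

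Syvn1 encodes the ubiquitin ligase HRD1, which marks the chains drawn out of the ER. In obese mice 1 to 3 the normalized count of Syvn1 was 693, 671 and 877, and in lean mice 1 to 3 it was 628, 716 and 591. Obese mouse 3 was the highest, and obese mice 1 and 2 lay within the lean range. The obese mean was 747 ± 113 and the lean mean 645 ± 64 (SD, n = 3 each). In limma the log2 fold change was 0.21 (standard error 0.14, adjusted p = 0.618). Mrpl49 overlaps it on the opposite strand, with a mean of 63.2% of that of Syvn1, and Mis12 likewise overlaps Derl2, at 41.6%.

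The other 6 genes of this group had log2 fold changes between -0.38 and 0.10. Sel1l, the partner of HRD1, was at -0.0027, and Derl1 and Derl2, membrane proteins of the extraction route, were at 0.10 and 0.05. Os9, a lectin that recognizes trimmed sugars, was at -0.12 and Edem2, a relative of Edem1, at -0.07. Derl3, of the same family as Derl1, was near the limit of detection, with 2 reads in obese mouse 1, below the 3 taken as the smallest signal, and its interval from -2.09 to 1.33 was the widest of the 35.

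The stress sensors and the transcription factors they release form a group of 5. Of these 1 (20%), Atf6, passed an unadjusted p under 0.05, against 12.2% of all genes. Atf6, on chromosome 1 from 170704674 to 170867771, encodes the membrane-bound factor that is cut in the Golgi under ER stress. Atf6 had 2272, 2448 and 2043 normalized counts in obese mice 1, 2 and 3 and 1662, 1579.6 and 1835 in lean mice 1, 2 and 3. The obese values were all above the lean values, with obese mouse 3 the lowest of the obese. The means were 2254 ± 203 for obese and 1692 ± 131 for lean mice (SD, n = 3 each). The log2 difference, obese over lean, was 0.41 with a standard error of 0.12 and an adjusted p = 0.149 in limma. It stayed between 0.35 and 0.48 on leaving out each mouse singly, and the adjusted p was 0.0512 in DESeq2 and 0.163 in edgeR. The paralog Atf6b was at -0.05, with an interval from -0.36 to 0.25.

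Ern1 encodes IRE1α, the sensor that splices Xbp1. Normalized counts of Ern1 were 325, 417 and 245 in obese mice 1 to 3 and 235, 258 and 302 in lean mice 1 to 3. Obese mice 1 and 2 were above all lean mice, and obese mouse 3 was within the lean range. Obese mice averaged 329 ± 85.9 and lean mice 265 ± 33.8 (SD, n = 3 each). This is a log2 fold change of 0.29 with a standard error of 0.20 (adjusted p = 0.622 in limma). Without obese mouse 3 the log2 fold change was 0.48 (adjusted p = 0.236 in limma).

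Eif2ak3 encodes PERK, the kinase of the translation arm. Obese mice 1, 2 and 3 had 213, 258 and 287 normalized counts of Eif2ak3, and lean mice 1, 2 and 3 had 193, 159 and 229.5. Obese mice 2 and 3 were above the lean mice and obese mouse 1 below lean mouse 3. The obese mean was 253 ± 37.5 and the lean mean 194 ± 35.4 (SD, n = 3 each). In limma the log2 fold change was 0.39 (standard error 0.19, adjusted p = 0.447). It was 0.29 without obese mouse 3.

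Xbp1 encodes the factor that acts once its mRNA is spliced. In obese mice 1 to 3 the normalized count of Xbp1 was 1674, 1435 and 2314, and in lean mice 1 to 3 it was 1439.9, 1353 and 1552. Obese mouse 3 was highest at 1.38 times the next mouse, obese mouse 1 was above the lean mice and obese mouse 2 within their range. The means were 1807 ± 454 for obese and 1448 ± 99.8 for lean mice (SD, n = 3 each). The log2 difference, obese over lean, was 0.29 with a standard error of 0.16 and an adjusted p = 0.526 in limma. Leaving out obese mouse 3 gave 0.10.

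The translocon group comprises Sec61a1 and Sec61b, subunits of the channel, and Ssr1, a subunit of the associated TRAP complex. Sec61a1 had 1509, 1563 and 2029.7 normalized counts in obese mice 1, 2 and 3 and 1476, 1480.3 and 1401 in lean mice 1, 2 and 3. All obese mice were above all lean mice, but obese mice 1 and 2 by a small margin. Obese mice averaged 1701 ± 286 and lean mice 1452 ± 44.4 (SD, n = 3 each). This is a log2 fold change of 0.21 with a standard error of 0.13 (adjusted p = 0.567 in limma). Sec61b and Ssr1 had log2 fold changes of 0.09 and 0.02, and obese mouse 3 was the highest of the 6 mice for all 3 genes.

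**Figure D3:**
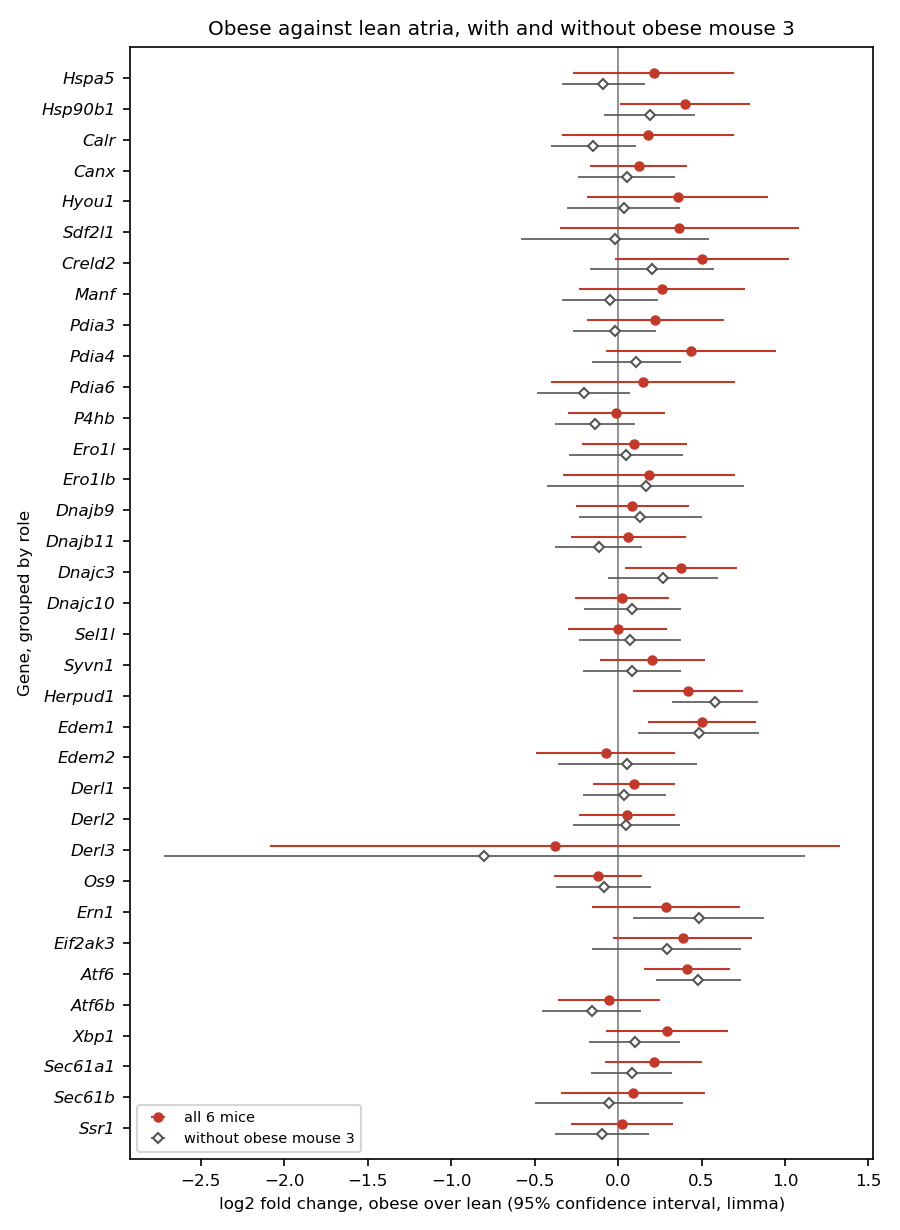
Log2 fold change of obese over lean with its 95% confidence interval from limma for each of the 35 genes, with all 6 mice (red circles) and without obese mouse 3 (open diamonds). The open diamonds of most chaperones and isomerases sit near 0, whereas those of Atf6, Edem1, Herpud1 and Ern1 do not move toward 0 or move only slightly.

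The confidence interval of the log2 fold change lay within 1 of 0 in both directions for 32 of the 35 genes, so a log2 change of 1 in either direction was outside the interval for these. The exceptions were Sdf2l1, Creld2 and Derl3. Between genes, levels can be compared only per length of exonic sequence. On that scale the most abundant were Hspa5, Calr, Hsp90b1, P4hb and Herpud1, with means over the 6 mice of 2062, 2018, 1900.3, 1829 and 1684 normalized counts per kilobase. The order of these 5 is not resolved, since over the lean mice alone they had 1864, 1837, 1617, 1828 and 1432 normalized counts per kilobase and without obese mouse 3 1819, 1765, 1709.8, 1760.4 and 1715, so that P4hb is above Hsp90b1 in both. The least abundant were Derl3, Ero1lb, Ern1 and Eif2ak3, with 5.13, 12.7, 36.4 and 37 normalized counts per kilobase, the last 2 of which exchange places over the lean mice alone, so that 2 of the 3 sensors were among the lowest and Atf6, at 214, was the highest of them.

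By promoter element, the ratio of obese mouse 3 to the mean of the other 5 mice had a median of 1.49 for the 12 genes with ERSE or ERSE-II and of 1.19 for the 18 matched genes without either. The ranges overlapped, from 0.891 to 2.01 and from 0.774 to 2.19. The 16 tested genes outside the list whose windows hold either element had a median ratio of 0.932, and obese mouse 3 was the highest mouse for 1 of them. Pdia4, Sdf2l1 and Pdia3, without a match in these windows, had ratios of 2.07, 2.19 and 1.65, and Herpud1 and Canx, with one, of 0.891 and 1.18. Of the 9 genes at least 1.5 times the next mouse in obese mouse 3, 4 had one of these elements, 3 did not and 2 had no matched window.

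**Figure D4:**
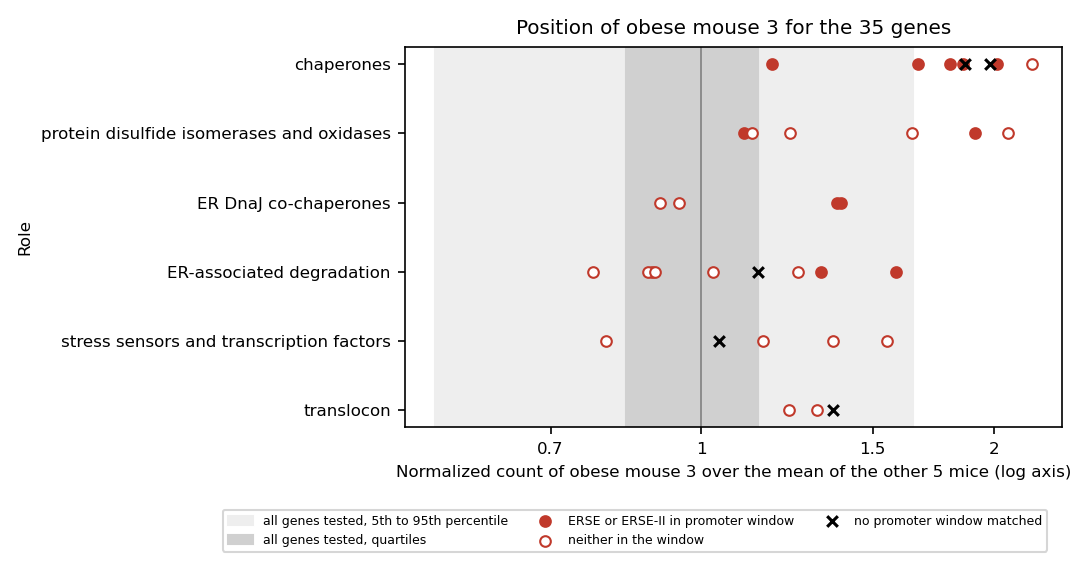
Each point is 1 of the 35 genes, placed by the normalized count of obese mouse 3 over the mean of the other 5 mice (log axis) and by role, with the shading for all genes tested. All chaperones but Canx, and Pdia4 and Pdia6, lie beyond the 95th percentile of all genes, at 1.65, while genes with (filled) and without (open) an element are found on both sides of it.

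In atrial markers and mitochondrial reads, obese mouse 3 also stood apart from the other obese mice. Its summed atrial myocyte markers, 979987 normalized counts, were above the range of the lean mice, 864339 to 908095, while obese mice 1 and 2 had 559170 and 669678. Of the 6 markers, 2 were lower in obese atria at an unadjusted p under 0.05 in limma, against 5.55% of all genes. The share of mitochondrial reads in obese mouse 3 was the lowest of the 6 mice. The 6 markers of antibody-secreting plasma cells, a type rich in these chaperones, summed to 437 in obese mouse 3, the lowest of the 6, against 499 to 1236 in the other mice. Markers of fibroblasts, a secretory type, summed to 42787 in obese mouse 3 and to between 40531 and 46418 in the others. The part of the atrial markers, of mitochondrial reads and of cell types in the values of the chaperones was not tested.

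The sums of 3 other marker lists did not overlap between the diets. Among single genes tested, 18% did not overlap, and 8.86% did not overlap and were higher in obese atria. The 6 endothelial markers summed to between 15372 and 16980.1 in the obese and between 12934 and 13755 in the lean mice, and 1 of the 6 had an unadjusted p under 0.05. The 7 macrophage markers summed to between 7662 and 8204 in the obese and 5393 and 6758 in the lean mice. Of the 7, 4 had an unadjusted p under 0.05 in limma, all higher, and 1 an adjusted p under 0.05. Of all genes, 12.2% had an unadjusted and 0.746% an adjusted p under 0.05. Of 4 brown adipocyte markers 3 were tested and 2 passed an adjusted p under 0.05 in limma, with sums over the 4 of 616 to 1283 in the obese and 187 to 330.3 in the lean mice. Sums of white adipocyte and of mesothelial markers overlapped between the groups, from 1257 to 3718 and 568 to 2747 for the former and from 1135 to 1804 and 1235 to 1843 for the latter. No list had a marker at 0 in all mice. The endothelial, macrophage and brown adipocyte sums are higher in all obese mice, as are Atf6, Edem1 and Sec61a1. The part of these cell types in the differences of Atf6, Edem1 and Sec61a1 was not tested.

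Outside the 35 genes, 83 further genes of the pathway in 6 lists were read from the same comparison, and 82 were tested. An adjusted p under 0.05 in limma was reached by 2 of the 82, against 0.746% of all genes. Both were higher in obese atria. An unadjusted p under 0.05 was reached by 7 (8.54%, against 12.2% of all genes), all higher. The median log2 fold change of the 82 was 0.04. Both called genes belong to the list named the PERK arm downstream of ATF4. In it 5 of 11 genes (45.5%, against 12.2% of all genes) had an unadjusted p under 0.05, Chac1, Asns, Trib3, Ppp1r15b and Atf4. Atf4 itself, Ppp1r15b and Eif2s1 are in this list, so its name does not mean that every member is a target of ATF4. The lists were chosen with earlier results of these data known, so this grouping is no independent result. The activity of PERK was not measured.

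Chac1, on chromosome 2 from 119351229 to 119354381, encodes an enzyme that degrades glutathione and is a known ATF4 target. Normalized counts of Chac1 were 343, 241 and 196 in obese mice 1 to 3 and 44.8, 52.7 and 31.7 in lean mice 1 to 3. The lowest obese value was far above the highest lean value. The obese mean was 259.9 ± 74.9 and the lean mean 43.1 ± 10.6 (SD, n = 3 each). In limma the log2 fold change was 2.56 (standard error 0.27, adjusted p = 0.00403). With each mouse left out it stayed between 2.34 and 2.74. The call is lost in limma without the variance trend (adjusted p = 0.0862), while over the other alternatives the adjusted p ranged from 5.87e-15 in DESeq2 to 0.0266 without obese mouse 1.

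Asns, on chromosome 6 from 7675169 to 7693254, encodes asparagine synthetase, induced by ATF4 when amino acids are short as well as under ER stress. Obese mice 1, 2 and 3 had 238, 253 and 295 normalized counts of Asns, and lean mice 1, 2 and 3 had 104, 58.2 and 67.8. Again the groups were well apart. The means were 262 ± 29.7 for obese and 76.7 ± 24.2 for lean mice (SD, n = 3 each). The log2 difference, obese over lean, was 1.80 with a standard error of 0.23 and an adjusted p = 0.00937 in limma. Leaving out obese mouse 2, lean mouse 2 or lean mouse 3 gave adjusted p values of 0.0515, 0.0515 and 0.061, all above the threshold, and limma without the variance trend gave 0.123. Over the other alternatives the adjusted p ranged from 5.24e-09 in DESeq2 to 0.029 without obese mouse 1.

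Trib3, a pseudokinase induced by ATF4, had 131, 168 and 151 normalized counts in obese mice 1, 2 and 3 and 66.1, 92.4 and 75.4 in lean mice 1, 2 and 3. The groups did not overlap, and the log2 fold change was 0.94 (standard error 0.21, adjusted p = 0.0797 in limma). DESeq2 gave an adjusted p of 0.0208. Ppp1r15b, a subunit of the phosphatase that reverses the action of PERK, was at 0.42 (adjusted p = 0.281 in limma).

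Atf4 itself had 2258, 1584 and 2428 normalized counts in obese mice 1, 2 and 3 and 1564, 1522 and 1514 in lean mice 1, 2 and 3. Obese mice 1 and 3 were well above the lean mice, while obese mouse 2 was only just above them. The log2 fold change was 0.42 (adjusted p = 0.298 in limma). Ddit3, which encodes CHOP, the factor linked to cell death under prolonged ER stress, had 331, 279 and 373 normalized counts in the obese and 327, 365 and 316 in the lean mice. These values overlapped, and the log2 fold change was -0.04 with an interval from -0.38 to 0.29.

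Atf3, a stress-induced transcription factor of the same list, was named after its values were seen, because it had the lowest log2 fold change of the 11. It had 85.4, 89.7 and 415 normalized counts in obese mice 1, 2 and 3 and 327, 125 and 699.5 in lean mice 1, 2 and 3. Obese mice 1 and 2 were below all lean mice, and obese mouse 3 lay within the lean range. The log2 fold change was -1.05 with an interval from -2.51 to 0.41 (adjusted p = 0.576 in limma). Leaving out obese mouse 3 gave -1.79 (adjusted p = 0.134 in limma), with an unadjusted p under 0.05. The remaining genes of the list, Ppp1r15a, Sesn2, Nupr1 and Eif2s1, had log2 fold changes of 0.19, 0.38, 0.26 and 0.02, none with an unadjusted p under 0.05.

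**Figure D5:**
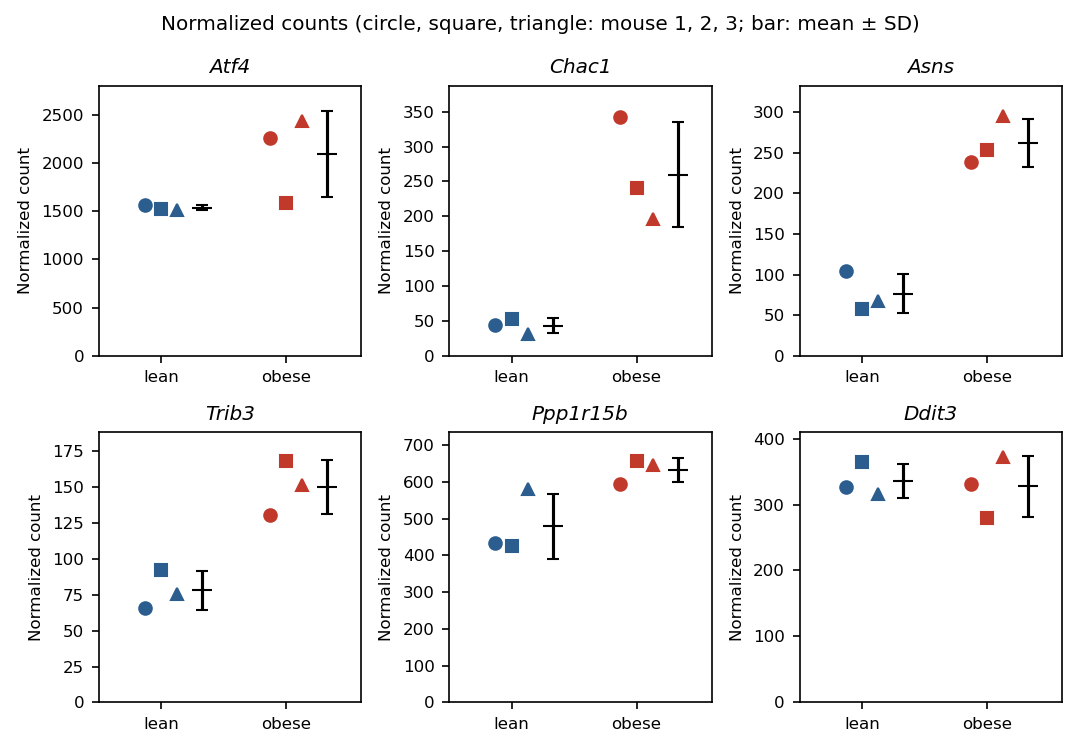
Normalized counts of 6 genes of the PERK arm in each mouse, with lean mice in blue, obese mice in red, the mouse numbers as symbols and the mean ± SD (n = 3) as a bar. Chac1, Asns and Trib3 are apart between the groups. Ppp1r15b and Atf4 do not overlap either. However, Ppp1r15b of lean mouse 3 lies close to the obese values and Atf4 of obese mouse 2 close to the lean values. Ddit3 overlaps.

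In the other 5 lists no gene passed an adjusted p under 0.05 in limma. Of 21 other folding enzymes, 1 had an unadjusted p under 0.05 (4.76%, against 12.2% of all genes). This was Fkbp10, a prolyl isomerase that acts on collagen. It had 1058, 1059 and 1052 normalized counts in the obese and 793, 698 and 586 in the lean mice. The 3 obese values were almost equal and above all lean values, with a log2 fold change of 0.62 (adjusted p = 0.0662 in limma, 0.00441 in DESeq2). In the same list Fkbp11 was at -0.57 and Dnajc1 at 0.22. Serpinh1, the collagen chaperone HSP47, which was singled out after its values were seen, had 12020.5 normalized counts in obese mouse 3 and between 4153 and 5559 in the other 5 mice, 2.16 times the next. This is the same mouse in which the chaperones above were highest. Of the 82 further pathway genes tested, Serpinh1 was the only 1 at least 1.5 times the next mouse in obese mouse 3, against 2.36% of all genes. Obese mouse 3 was the highest mouse for 39 of the 82, against 20.3% of all genes. The median ratio of obese mouse 3 to the mean of the other 5 mice was 1.13 for the 82 and 0.988 for all genes.

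Among the 16 other genes of ER-associated degradation, 1 had an unadjusted p under 0.05 (6.25%, against 12.2% of all genes). This was Nploc4, a cofactor of the extraction ATPase p97, at 0.33 (adjusted p = 0.267 in limma). Its partner Ufd1l was at -0.21 and Ubxn4 at 0.20, neither past the threshold. In the lists of translocation (15 genes), N-glycosylation (12 tested) and ATF6 proteases and relatives (7), no gene had an unadjusted p under 0.05. Their median log2 fold changes were 0.04, 0.13 and 0.03. The genes with the smallest p in these lists were Spcs3 (0.29), Ssr4 (-0.18) and Sec61g (-0.91) for translocation, Uggt1 (0.24), Stt3b (0.24) and Ganab (0.18) for glycosylation, and Mbtps2 (0.28), Creb3l2 (-0.16) and Mbtps1 (0.10) for the ATF6 proteases and relatives.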

How the data were processed

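RNA of 3 obese and 3 lean mouse atria was sequenced by the authors as single-end reads from directional libraries. Per the labels and methods, the authors checked reads with FastQC and aligned them to GRCm38 with STAR. Reads that mapped uniquely were attributed to Ensembl genes by Salmon, and DESeq2 served for the comparison of diets, with versions not given in the sources used here. The deposited signal is, for every gene and sample, a read count divided by 1 size factor per sample, called normalized counts. The authors also deposited the mean of these values, a log2 fold change with its standard error, a p-value and an adjusted p-value, and 2 score columns (the Wald statistic and a ranking metric), none of which was used. Whether strand was used in counting is not stated.

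Division of each sample by its smallest positive value gave whole reads for 100% of the values in each sample (tolerance 0.01 reads), which means the reads behind each value are known, to counting error only. Totals ranged from 15874251 to 28971508 reads. A row without a gene identifier held no reads and was left out. Differences between diets were tested by limma 3.58.1 under R 4.3.3, using lmFit and a variance trend in eBayes, on log2(normalized count + 1) and without covariates. Genes needed a mean of 10 or more and were tested two-sided, with Benjamini-Hochberg adjustment over all 15275 genes and a threshold of 0.05. Because of the added 1, changes of weakly expressed genes come out too small. Single genes also had a two-sided exact permutation test. Gene coordinates are those of the deposited table (GRCm38), exon lengths come from GENCODE M21 and promoter windows from RefSeq (GRCm38.p6). Genes that share reads with near-identical copies or overlapping genes are uncertain.

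The 35 genes and all lists were chosen with earlier results of these data known. Values in every mouse were to be given for genes with an adjusted p under 0.05, for the 12 of the 35 with the smallest p, and for Hspa5, Hsp90b1, Calr, Xbp1, Atf6, Ern1, Eif2ak3, Herpud1 and Dnajb9. Of each further list, genes with an adjusted p under 0.05 and up to 3 with the smallest p were named, with Atf4 and Ddit3. Other marker and pathway genes were summarised by list. Alternatives were quantile normalization, mitochondrial genes left out, limma without the variance trend, no filter, a minimum of 10 in every sample, a pseudocount of 0.1, the replicate number as a block, the omission of each mouse, and DESeq2 1.42.0 and edgeR 4.0.16 (TMM or RLE, quasi-likelihood) on the recovered reads. The fits were tested on simulated data.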

Additional observations from a re-analysis of the deposited data

How the results depend on the processing

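Of all genes, 114 had an adjusted p under 0.05 in limma, 0 without the variance trend, 470 with DESeq2, and between 14 (without lean mouse 2) and 318 (without obese mouse 3) with each mouse left out. Of the 35 genes, 0 were called in limma with all mice and between 0 and 1 with each mouse left out. Those at an unadjusted p under 0.05 were 5 with all mice, 2 without the variance trend, and between 3 (without lean mouse 1 or lean mouse 2) and 8 (without obese mouse 1) with each mouse left out. The median log2 fold change of the 35 ranged from 0.05 (without obese mouse 3) to 0.29 (without obese mouse 1). Of the further pathway genes, 2 were called with all mice, 0 without the variance trend, 4 with DESeq2, and between 1 and 2 with each mouse left out, 1 being called without obese mouse 2, lean mouse 2 or lean mouse 3. With each mouse left out, the log2 fold change ranged from -0.088 to 0.39 for Hspa5, from -0.15 to 0.39 for Calr, from -0.039 to 0.24 for Dnajb9 and from -0.14 to 0.066 for Ddit3, turning positive for Ddit3 without obese mouse 2 (0.066) and without lean mouse 2 (0.017). The cause of these differences was not tested. Of 575 alternative values for the 36 named genes, 562 kept their direction and their side of the threshold. The named genes include only 16 of the 35, and the size of a change did not enter this count. Of all 35 genes, 11 changed sign without obese mouse 3. With 3 mice in each group and the depth reached, 1 of the 35 genes, Derl3, was too low to compare.

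The mice of the 2 groups share replicate numbers only as names, since they are different animals, and the deviations of same-numbered mice correlated at 0.12, -0.03 and -0.0039. With the replicate number as a block, 157 genes had an adjusted p under 0.05, 0 of the 35 were called, 7 of them had an unadjusted p under 0.05, and 2 of the further pathway genes were called.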
